A study of Homo sapiens with 18 samples.

Results

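The distal long arm of chromosome 11 was followed here through every accessibility peak called between 75 Mb and the chromosome end in 2 human neuroblastoma cell lines. The interval is defined by position on the hg19 build, and it was chosen with earlier results of these data known. It held 18959 of the 781454 peaks listed on chromosomes 1 to 22 and X over 18 libraries. Peaks came from ATAC-seq, which reads out where a transposase could reach and tag the DNA, so that a pile of reads marks accessible chromatin. Kelly and BE2C are established neuroblastoma lines, and the series title places the study in disease with amplified MYCN. Cells of each line were transduced with a lentivirus that carried the empty vector pLKO or a short hairpin RNA against AHR, called here shAhR-1 and shAhR-2. AHR encodes the aryl hydrocarbon receptor, a ligand-activated transcription factor. Every group thus carried a lentiviral vector, and each of the 6 groups held 3 libraries.

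This stretch is among those recurrently lost from tumour genomes in neuroblastoma, and its loss is a recognised marker of poor outcome there. The interval holds ATM, the kinase that starts the response to DNA double-strand breaks, and CHEK1 and H2AX of the same response. It also holds genes for surface proteins of neurons, among them NCAM1 and CADM1, which mediate cell adhesion. Of 39 such landmark genes looked up in the RefSeq table of a later assembly, 39 were found, and their order from the centromere side ran from GAB2 and TENM4 through MRE11, YAP1, ATM, NCAM1 and CADM1 to KMT2A, CBL, CHEK1, ETS1, NTM and OPCML. No annotation of hg19 was used, so no peak below is assigned to a gene and the results are ordered by position.

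The lists were of unequal length, from 9204 peaks in replicate 1 of Kelly shAhR-1 to 81637 in replicate 3 of BE2C shAhR-2. The 6 shAhR-2 libraries had the 6 longest lists, 60457 peaks or more. A list holds no value where no peak passed the caller, so an absent peak does not show closed DNA. The labels speak of triplicates without saying that these were separate cultures, so a p-value here refers to library-to-library spread alone, possibly of technical origin. The number of copies of the arm in either line was not measured here.

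The distal arm took a larger share of the peaks in BE2C than in Kelly. In Kelly, the arm held 1.78%, 1.52% and 1.79% of the peaks in the 3 pLKO libraries, 1.5%, 1.64% and 1.75% with shAhR-1, and 1.82%, 1.87% and 1.83% with shAhR-2. In BE2C, the shares were 2.66%, 2.63% and 2.73% with pLKO, 2.68%, 2.58% and 2.52% with shAhR-1, and 3.08%, 3.16% and 3.19% with shAhR-2. Every BE2C library lay above every Kelly library. The least certain share, that of the shortest list, had a 95% Wilson interval of 1.27% to 1.77%, and that of the longest list one of 3.07% to 3.32%; these cover counting error only. The share in Kelly lay 0.70 lower on the log2 scale (1.63-fold higher in BE2C; n = 9 and 9 libraries; two-sided exact permutation test with lines exchanged within a condition, p = 0.00025, the smallest it can give; Benjamini-Hochberg adjusted p = 0.002 over 8 tests on the arm). The BE2C to Kelly ratio was 1.58 within pLKO, 1.60 within shAhR-1 and 1.71 within shAhR-2.

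The rest of chromosome 11 did not share this difference. Its share ranged from 2.30% to 3.15% in Kelly and from 2.19% to 2.70% in BE2C. The BE2C to Kelly ratio was 0.901, with overlapping lines over all conditions. Within pLKO and within shAhR-2 Kelly lay above BE2C without overlap, with ratios of 0.854 and 0.905. Within shAhR-1 the lines overlapped, with a ratio of 0.947. These differences were not tested. Nor did the arm's difference lie with weak peaks only. Among the strongest 25% of each list by p, the BE2C to Kelly ratio was 1.70, and among the weakest 25% it was 1.89; the lines did not overlap in either. With every list shortened to its 9204 strongest peaks, the ratio was 1.70.

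**Figure D1:**
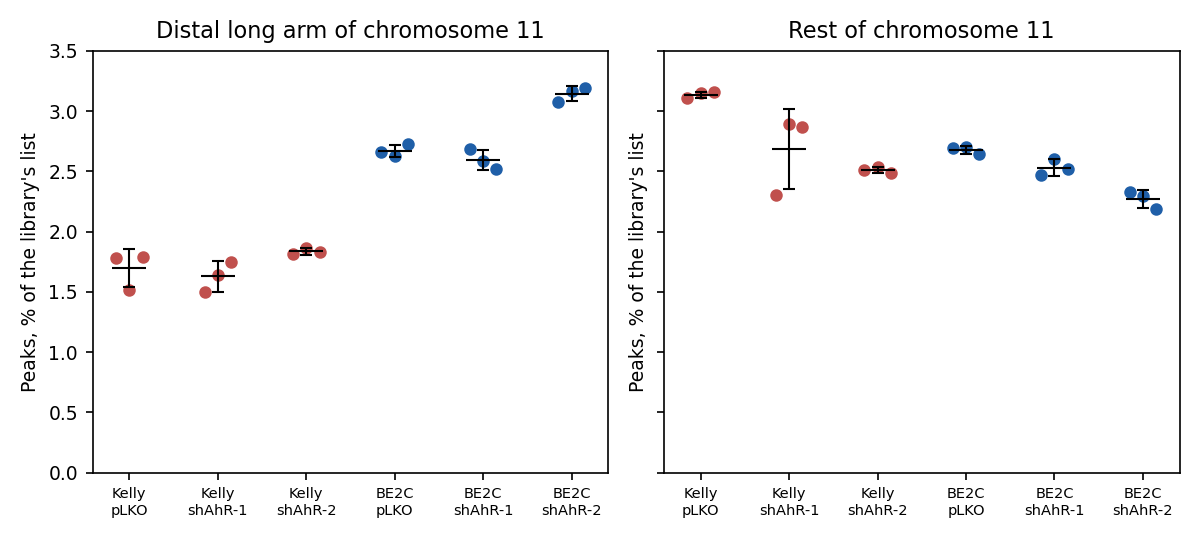
Share of each library's peaks on the distal long arm (left) and on the rest of chromosome 11 (right), in percent of the peaks on chromosomes 1 to 22 and X; points are libraries, and bars are the mean and SD of 3. On the distal arm every BE2C library (2.52% to 3.19%) lies above every Kelly library (1.5% to 1.87%). On the rest of the chromosome the lines overlap over all conditions, but within pLKO and within shAhR-2 Kelly lies above BE2C without overlap.

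In 5 Mb steps, the difference between the lines was uneven along the arm. Of the 12 windows, 11 held a lower share in Kelly than in BE2C in a limma fit over 591 windows of the genome (adjusted p under 0.05), against 33.8% of all windows called lower in Kelly. The other window, 85 to 90 Mb, held a higher share in Kelly (log2 difference 0.26 ± 0.09 SE, adjusted p = 0.014 by limma), against 33.8% of all windows called higher. The median log2 difference was -0.55 over the 12 windows and 0.01 over all windows. From 75 to 115 Mb the differences called lower lay between -0.26 and -0.58 on the log2 scale, which is 1.20-fold to 1.5-fold higher in BE2C.

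From 115 Mb to the chromosome end the gap was several times wider. In the window from 115 to 120 Mb, the share ran from 0.0652% through a median of 0.143% to 0.190% over the 9 Kelly libraries. Over the 9 BE2C libraries it ran from 0.344% through 0.366% to 0.419%. From 120 to 125 Mb the Kelly libraries ran from 0.0435% through 0.104% to 0.136%, and the BE2C libraries from 0.277% through 0.307% to 0.324%. In both windows even the lowest BE2C library was well above the highest Kelly library, 0.344% against 0.190% and 0.277% against 0.136%. From 125 to 130 Mb the ranges were 0.0893% to 0.121% in Kelly and 0.268% to 0.350% in BE2C. From 130 Mb on they were 0.0326% to 0.0861% in Kelly and 0.134% to 0.216% in BE2C. The lines did not overlap in any of these 4 windows. How many windows of the genome separated the lines in this way was not counted.

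The limma log2 differences in these 4 windows were -1.49 ± 0.13, -1.62 ± 0.12, -1.47 ± 0.05 and -1.37 ± 0.10 (SE), with a largest adjusted p of 8.15e-09. They correspond to shares 2.80-fold, 3.08-fold, 2.77-fold and 2.59-fold higher in BE2C. Among the 591 windows ordered from the most BE2C-rich, they ranked 4, 2, 5 and 7. Taken as one block from 115 Mb on, the share was 0.239% to 0.525% in Kelly and 1.06% to 1.25% in BE2C, a ratio of 2.86. From 75 to 115 Mb the ranges over all conditions, 1.15% to 1.53% in Kelly and 1.44% to 2.01% in BE2C, overlapped, with a ratio of 1.25. Within each condition BE2C lay above Kelly there without overlap, with ratios of 1.24 in pLKO, 1.17 in shAhR-1 and 1.36 in shAhR-2.

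All 3 conditions showed the gap beyond 115 Mb on their own. Within pLKO alone, 8 windows were called lower in Kelly (20.8% of all windows), the 4 beyond 115 Mb with log2 differences of -1.33, -1.50, -1.32 and -0.89. Within shAhR-1, 8 were called lower (22.5% of all windows), those 4 with -1.68, -1.92, -1.36 and -1.52. Within shAhR-2, 10 were called lower (26.2% of all windows), those 4 with -1.45, -1.46, -1.73 and -1.71. With shortened lists, where fewer windows held enough peaks to be tested, 8 windows of the arm were called between the lines.

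**Figure D2:**
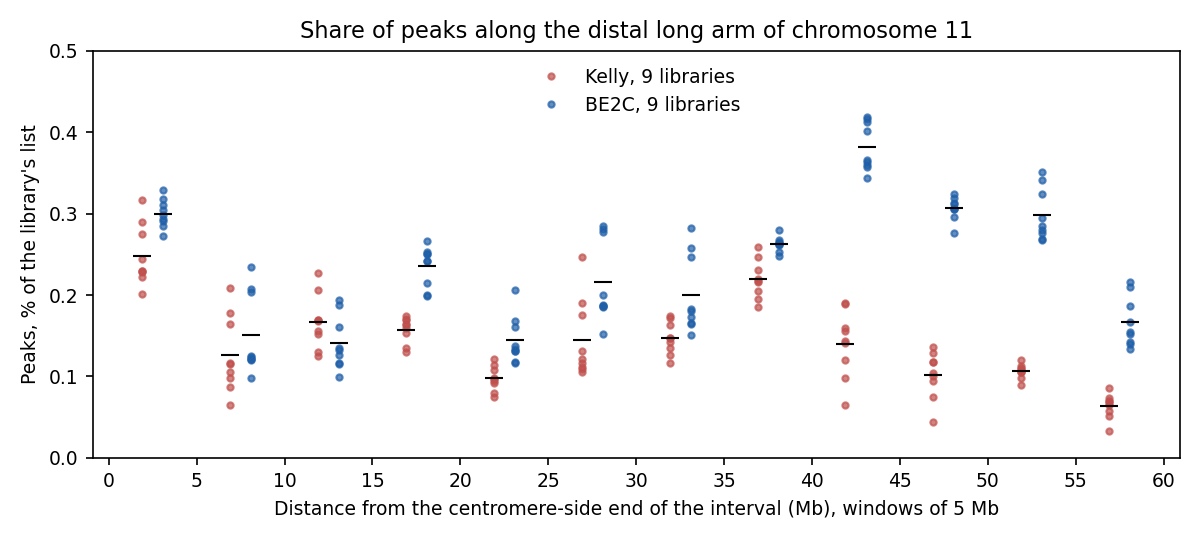
Share of each library's peaks in the 12 windows of 5 Mb, against the distance from the centromere-side end of the interval (0 is 75 Mb); points are libraries, bars are the mean of 9 per line. Beyond 40 Mb from that end the 2 lines separate without overlap, with BE2C 2.59-fold to 3.08-fold above Kelly. Windows of the genome that separate in this way were not counted.

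The values deposited with a peak allow a further reading of this gap. A peak's fold, the authors' own value, is the number of overlapping reads at its summit (the pileup) over a local background, and the fold and p together give back both numbers. Among regions called in all 18 full lists, 100 lay on the arm, and both numbers could be solved for 94 of them. In each library, the median over these sites was divided by the median over sites on chromosomes other than 11. The resulting relative pileup was 0.871 at its lowest, 0.909 at the median and 0.956 at its highest in Kelly, against 1.19, 1.28 and 1.44 in BE2C. The relative local background was 0.864, 0.908 and 0.926 in Kelly, against 1.13, 1.18 and 1.32 in BE2C. Neither measure overlapped between the lines.

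On the log2 scale, Kelly lay lower than BE2C by a difference of -0.51 in pileup and -0.43 in local background (two-sided exact permutation tests, p = 0.00025 for each, the smallest possible, and 0.00025 after adjustment over these 2 tests, n = 9 and 9). These 2 tests were chosen after the data had been seen. The fold, the ratio of both, differed far less. Relative to other chromosomes it was 1.02 to 1.11 in Kelly and 1.04 to 1.15 in BE2C, a log2 difference of -0.04 with overlapping lines (exact permutation test, p = 0.019, adjusted p = 0.038, n = 9 and 9). That call was lost in 8 of the 18 fits that left out 1 library. Over all peaks of the full lists, and not only shared sites, the direction turned, with the relative fold of the arm 0.19 higher in Kelly. In each of the 9 Kelly libraries the median fold of arm peaks was above that of other chromosomes (5.18 against 4.88 in replicate 1 of shAhR-2), and in each of the 9 BE2C libraries it was below (4.63 against 5.23 in replicate 1 of shAhR-2).

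In the windows of 5 Mb, pileup and local background moved together. At shared sites, 11 of 11 windows had a lower pileup in Kelly (39.2% of all windows were called lower) and 11 of 11 a lower local background (39.0% of all windows). From 115 to 130 Mb the log2 differences in pileup were -1.39, -1.68 and -1.73, and those in local background -1.20, -1.44 and -1.42, over only 3, 2 and 4 sites. From 75 to 115 Mb they lay between -0.18 and -0.54 for pileup and between -0.12 and -0.44 for local background. Only 5 windows held the 10 shared sites required for the fold, all before 115 Mb, and 0 of these were called by limma (14.4% of all windows; 1 had an unadjusted p under 0.05). With no minimum number of sites, the windows from 115, 120 and 125 Mb were called for fold, with log2 differences of -0.17, -0.21 and -0.11 over 4, 2 and 5 sites (7.18% of all windows were called lower). Within pLKO the first 2 of these were called, with -0.34 and -0.43 (limma adjusted p = 0.0154 and 0.000413; 2.91% of all windows). Within shAhR-1 those from 120 and 125 Mb were called, with -0.25 and -0.27 (limma adjusted p = 0.0226 and 0.0102; 4.44% of all windows). Within shAhR-2 the 3 differences were -0.01, 0.05 and -0.00, and none was called. The shAhR-2 effect on fold differed between the lines from 120 to 125 Mb, by 0.48 (limma interaction, adjusted p = 0.016; 1.37% of all windows), on 2 sites.

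The long shAhR-2 lists allowed a denser view, with 622 of the 32131 regions called in all 6 shAhR-2 libraries on the arm. No test was made on these, and the values describe 3 libraries of each line. Relative to other chromosomes, the pileup of Kelly beyond 115 Mb was 0.652, 0.70, 0.759 and 0.729 in the 4 windows. That of BE2C was 1.52, 1.91, 1.76 and 2.30. The lines did not overlap in these windows, and the BE2C to Kelly ratio was 2.33, 2.73, 2.32 and 3.15. Across the genome, 38.7% of windows had BE2C above Kelly without overlap. Before 115 Mb, the ratio lay between 1.22 and 1.57 in 7 windows and was 0.758 from 85 to 90 Mb, where Kelly was the higher line (29.5% of all windows had Kelly above BE2C without overlap). In those 7 windows, too, BE2C lay above Kelly without overlap. From 85 to 90 Mb the direction turned with the choice of sites: over the 11 sites of all 18 libraries, the same shAhR-2 libraries had a lower pileup in Kelly (-0.51, limma adjusted p = 6.58e-05), and over the 50 sites used here a higher one.

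The local background at these sites followed the same course, with BE2C to Kelly ratios of 2.30, 2.60, 2.56 and 3.37 beyond 115 Mb. BE2C lay above Kelly without overlap in these 4 windows and in 7 of the 8 before them (38.9% of all windows). The BE2C to Kelly ratio of the fold stayed between 0.937 and 1.13 in the same 4 windows. BE2C was above Kelly in fold without overlap in the windows from 115 and 120 Mb (19.6% of all windows) and below it from 125 Mb (16.7% of all windows). In the shAhR-2 libraries, these sites on the outer arm thus had more reads in BE2C, relative to other chromosomes, both at their summits and around them, with a fold close to that of Kelly. They had to be called in both lines, so sites without a Kelly peak are left out. In the 4 windows beyond 115 Mb, 64.2% to 76.4% of the regions of the full lists were found in BE2C libraries only. The part of this choice of sites in the fold ratio was not tested.

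**Figure D3:**
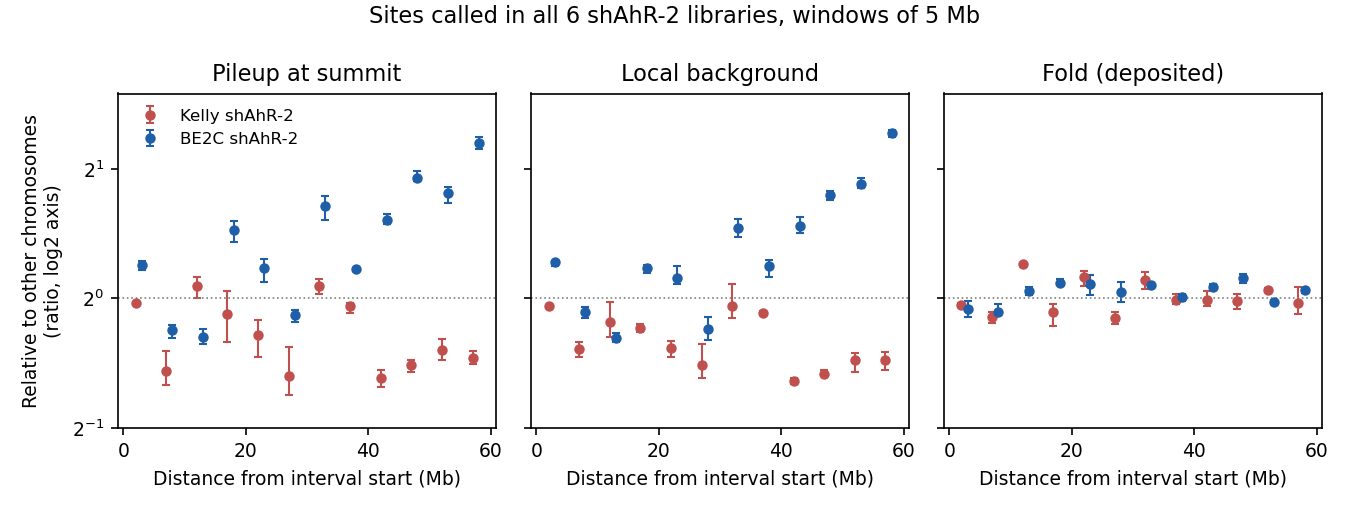
Pileup, local background and deposited fold at sites called in all 6 shAhR-2 libraries, each relative to chromosomes other than 11 (log2 axis), against the distance from 75 Mb in windows of 5 Mb; points are the geometric mean of 3 libraries and bars their range. BE2C lies above Kelly in pileup and in background in 7 of the 8 windows before 40 Mb and in all 4 beyond it, where the pileup ratio is 2.32 to 3.15 and the fold ratio 0.937 to 1.13.

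In steps of 1 Mb the ratio of local background rose at about 115 Mb. The BE2C to Kelly ratio of the background was 0.989, 1.29, 1.20, 1.29 and 1.33 in the 5 steps from 110 to 115 Mb, over 9, 24, 17, 26 and 5 sites. In the 5 steps from 115 to 120 Mb it was 2.88, 1.88, 2.27, 2.38 and 2.21, over 6, 8, 8, 20 and 10 sites. From 120 to 125 Mb it lay between 1.57 and 3.06. BE2C lay above Kelly without overlap in 7 of the 10 steps before 115 Mb and in all 10 after (34.1% of all steps). The relative background of Kelly was 1.06 between 114 and 115 Mb (0.915 to 1.16 over 3 libraries) and 0.616 in the next step (0.584 to 0.663). A fall of similar size lay further in, from 1.20 between 107 and 108 Mb to 0.676 in the next step, over 14 and 11 sites, and was followed by 1.28. In all 10 steps from 115 to 125 Mb Kelly stayed between 0.612 and 0.822, whereas in the 10 before it ranged from 0.676 to 1.28. BE2C varied more from step to step, from 0.715 to 2.02 before 115 Mb and from 0.963 to 2.30 after. The same Kelly value, 0.652, recurred as the lowest library from 117, 118 and 120 Mb and as the highest from 116, 121 and 122 Mb. Another, 0.581, was the lowest library from both 116 and 122 Mb. No site can fall below the lowest background of its library, 2.56 to 2.91 overlapping reads in Kelly shAhR-2. Sites at that floor were not counted, and its part in the steady level of Kelly was not tested.

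**Figure D4:**
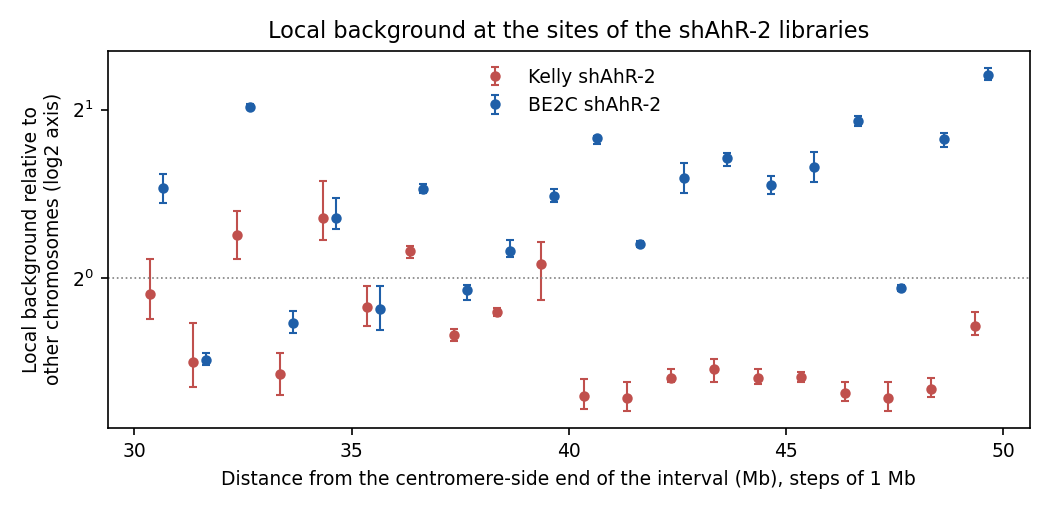
Local background relative to chromosomes other than 11 in steps of 1 Mb, from 30 to 50 Mb beyond the interval's start (log2 axis), at sites of the shAhR-2 libraries; points are the geometric mean of 3 libraries and bars their range. BE2C lies above Kelly without overlap in 7 of the 10 steps before 40 Mb and in all 10 after, where Kelly stays between 0.612 and 0.822. Sites at the lowest background of a library were not counted.

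The presence of peaks was compared after every list had been shortened to 9204 peaks, which gave 429 merged regions on the arm of 19921 in all. Of these 429, 55 were called in all 18 libraries, or 12.8% against 15.0% of regions over the genome. Regions in all 9 BE2C and no Kelly libraries numbered 17 on the arm, or 3.96% against 0.848% over the genome. The arm held 2.15% of all regions and 10.1% of those with this pattern. The reverse pattern, all 9 Kelly and no BE2C libraries, was found in 1 region of the arm, or 0.233% against 0.417%. Replicate 1 of Kelly shAhR-1 set the length of these lists; without it they were longer, and the 3 counts were 156, 38 and 2. In the full lists the counts were 100, 44 and 0 (4.22%, 0.518% and 0.0459% of regions over the genome).

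Most BE2C regions of the shortened lists lay in the outer windows. Of the 17, 15 lay beyond 115 Mb, 8 of them from 130 Mb on. Counting any library, 71.1%, 67.4%, 64.6% and 75.9% of the regions in the 4 outer windows were found in BE2C libraries only. In the 8 inner windows that share was 7.41% to 34.6%, and on chromosomes other than 11 it was 15.7%. Regions found in Kelly libraries only made up 0%, 2.17%, 6.25% and 13.8% of the outer windows, 0, 1, 3 and 4 regions, against 26.6% on other chromosomes. The division was less clear in the full lists, where 26 of the 44 BE2C regions lay beyond 115 Mb, 1 of them from 130 Mb on. There the BE2C-only share by any library was 64.2% to 76.4% in the outer windows and 40.3% to 67.9% in the inner ones, which overlap, against 33.5% on other chromosomes. The Kelly-only share was 0.845% to 4.94% in the outer windows and 10.1% to 25.4% in the inner ones.

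**Figure D5:**
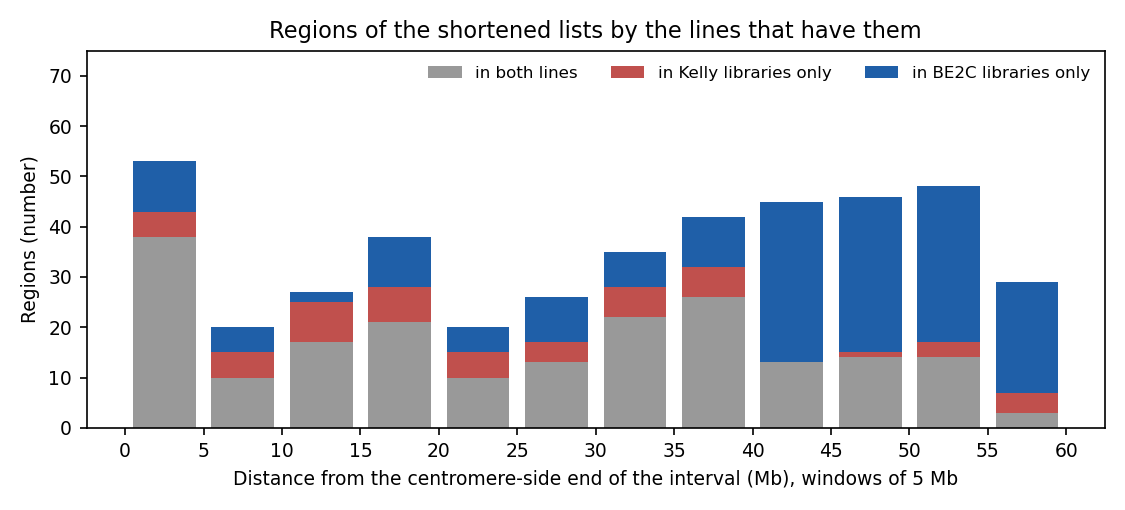
Number of merged regions of the shortened lists in each 5 Mb window, by whether libraries of both lines, only Kelly or only BE2C have them, against the distance from 75 Mb. In the 4 windows beyond 40 Mb, 64.6% to 75.9% of the regions are BE2C-only.

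The strongest shared region of the arm was chr11:85195011-85195304, 294 bp wide. Its fold was 23, 22 and 23.3 in Kelly pLKO, 20.1, 27.9 and 25.3 in Kelly shAhR-1, and 21.3, 19.6 and 23.4 in Kelly shAhR-2. In BE2C it was 19.5, 21.5 and 19.1 with pLKO, 21.3, 19.0 and 21.3 with shAhR-1, and 18.8, 18.2 and 17.5 with shAhR-2. It held the highest fold of the arm in all 18 libraries. The next 4 shared regions in this order, chr11:82996594-82997951, chr11:105892422-105893737, chr11:86748243-86749484 and chr11:101785178-101786652, were 1242 to 1475 bp wide and had folds between 8.61 and 18.2. All 5 lay before 115 Mb.

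The single Kelly region, chr11:96989586-96990325, had a fold of 12, 9.28 and 14.2 with pLKO, 6.31, 13.1 and 9.37 with shAhR-1, and 9.64, 9.81 and 11.7 with shAhR-2. In BE2C, weaker peaks of the full lists lay there, with a fold of 6.52, 8.61 and 6.97 with pLKO, 8.0, 5.39 and 5.29 with shAhR-1, and 4.61, 4.47 and 2.61 with shAhR-2. The site was thus called in all 18 full lists, at a lower fold in BE2C shAhR-2 than in any other group.

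The 5 leading BE2C regions also had weaker Kelly peaks in the full lists. The first, chr11:134122755-134124033, had a fold of 11.5, 15.4 and 13.0 in BE2C pLKO, 14.2, 9.48 and 10.2 with shAhR-1 and 10.2, 9.76 and 9.52 with shAhR-2. In Kelly it had 10.5, 5.48 and 9.23 with pLKO, no peak, 6.62 and 4.94 with shAhR-1, and 9.73, 9.61 and 11.2 with shAhR-2. In the shAhR-2 libraries the folds of both lines overlapped, although the Kelly peaks ranked below the strongest 9204. The other 4, chr11:130785637-130786964, chr11:129764800-129766110, chr11:133938742-133939974 and chr11:118888807-118890035, were found in 16 or 17 full lists, and each lacked a peak in replicate 1 of Kelly shAhR-1. All 5 lay beyond 115 Mb.

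Of the 44 regions in all BE2C and no Kelly full list, 3 are named here, chosen after their values were seen as those with the highest lowest fold. At chr11:120417282-120419256 the BE2C folds were 6.59, 9.27 and 9.67 with pLKO, 9.60, 6.98 and 7.14 with shAhR-1, and 7.48, 8.10 and 6.73 with shAhR-2. At chr11:113212055-113212970 they ranged from 6.03 to 10.9, and at chr11:117642667-117644004 from 5.80 to 10.3. No Kelly library had a peak at these 3 sites at any strength that passed the caller.

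Against pLKO, the share of peaks on the arm was higher with shAhR-2 and not detectably changed with shAhR-1. The log2 difference was 0.18 for shAhR-2 (1.13-fold; 1.09-fold in Kelly and 1.18-fold in BE2C, without overlap of the libraries in either line; two-sided exact permutation test, p = 0.005, the smallest possible, adjusted p = 0.013, n = 6 and 6). For shAhR-1 it was -0.05 (exact permutation test, p = 0.33, adjusted p = 0.377, n = 6 and 6). shAhR-2 against shAhR-1 gave 0.23 (exact permutation test, p = 0.005, adjusted p = 0.013, n = 6 and 6). Both hairpins were set against the same pLKO libraries. The shAhR-2 libraries had the 6 longest lists. With lists of 9204 peaks the log2 difference was 0.14 (exact permutation test, adjusted p = 0.168), 0.960-fold in Kelly and 1.26-fold in BE2C. At that length the BE2C libraries still did not overlap (2.91% to 3.01% against 2.29% to 2.41%), while those of Kelly did. The part of list length was not tested. Without replicate 2 of Kelly shAhR-2, the log2 difference in the full lists was 0.17 (exact permutation test, adjusted p = 0.05).

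By window, shAhR-2 was called against pLKO in 7 of 12, 6 higher (33.2% of all windows) and 1 lower (28.9% of all windows). The most changed window was that from 80 to 85 Mb. There the Kelly shares were 0.0976%, 0.0651% and 0.116% with pLKO and 0.177%, 0.208% and 0.164% with shAhR-2. In BE2C they were 0.125%, 0.0986% and 0.124% with pLKO and 0.203%, 0.207% and 0.234% with shAhR-2. The hairpin libraries lay above the vector libraries in both lines, by 0.94 ± 0.11 (SE) on the log2 scale (limma adjusted p = 1.86e-06). The windows from 85, 90, 95, 100 and 105 Mb rose by 0.49, 0.21, 0.37, 0.72 and 0.49, and that from 75 Mb fell by 0.27. None of the 5 windows from 110 Mb on was called over both lines. Within lines, that from 110 Mb fell in Kelly (-0.24, limma adjusted p = 0.022). Those from 125 and 130 Mb rose in BE2C (0.27 and 0.50, limma adjusted p = 0.025 and 0.033). The fall from 75 Mb was called in Kelly (-0.44, limma adjusted p = 0.00013) and not in BE2C (-0.10, limma adjusted p = 0.335). Likewise, the rise from 90 Mb was called in Kelly (0.26, limma adjusted p = 0.026) and not in BE2C (0.15, limma adjusted p = 0.22). With shortened lists 4 windows were called, and with peaks of a −log10 q of at least 5 it was 3.

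shAhR-1 gave 2 called windows of 12, 75 to 80 Mb with -0.25 and 105 to 110 Mb with 0.26 (limma; 9.98% of all windows called in either direction). Neither was kept with shortened lists, with the stricter q or with windows shifted by 2.5 Mb, where 0 windows were called. Within lines, shAhR-1 was called in 4 windows in Kelly (19.3% of all windows) and 0 in BE2C (0.0% of all windows; 1 had an unadjusted p under 0.05). A difference between the lines in the shAhR-1 effect was called by limma in 0 windows of the arm (0.338% of all windows; 3 had an unadjusted p under 0.05). For shAhR-2 it was called in 1, from 130 to 135 Mb (7.11% of all windows), and that call was kept in only 4 of 18 fits that left out 1 library. Relative fold was called in 0 of the 5 windows tested for either hairpin (limma; 5.9% of all windows for shAhR-1 and 25.6% for shAhR-2; 0 had an unadjusted p under 0.05 for either), and on the whole arm its log2 difference was 0.04 for shAhR-1 and -0.01 for shAhR-2 (exact permutation tests, adjusted p = 0.26 and 0.495, n = 6 and 6).

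Single regions gained or lost with the hairpins were counted in each line. Lists were shortened to the shortest of each line, 9204 in Kelly and 25660 in BE2C, and a region gained with a hairpin had a peak in all its libraries and in no pLKO library. In Kelly, 255 regions of the arm were compared. With both hairpins 0 were gained and 1 was lost (0.233% and 0.519% of all regions). With shAhR-2, 4 were gained and 4 lost (2.84% and 2.9% of all regions), and with shAhR-1 0 and 4 (1.33% and 1.61% of all regions). These counts rested on replicate 1 of Kelly shAhR-1. Without it, the 3 sums of gained and lost regions were 12, 50 and 34 in place of 1, 8 and 4. The lists were then longer, and 571 regions of the arm were compared in place of 255. With all libraries, the changed share of regions was lower on the arm than over the genome. It was 0.392% against 0.752% with both hairpins, 3.14% against 5.73% with shAhR-2 and 1.57% against 2.94% with shAhR-1. Without that replicate it was higher on the arm, 2.102% against 1.426%, 8.76% against 7.52% and 5.95% against 5.38%. These differences were not tested.

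In BE2C, 1105 regions were compared. With both hairpins 10 were gained and 9 lost (0.461% and 1.0% of all regions). With shAhR-2, 75 were gained and 29 lost (3.59% and 3.2% of all regions), and with shAhR-1 23 and 16 (1.37% and 1.69% of all regions). The counts of gained and lost regions with shAhR-2 are sums over the whole arm. Of the 1105 regions, 104, or 9.41%, changed in either direction against 6.79% over the genome. In the full lists 512 of 3792 regions of the arm changed, or 13.5% against 13.7% over the genome. The higher share on the arm was thus not seen there.

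The 1 region lost with both hairpins in Kelly, chr11:113420613-113421267, had a fold of 10.7, 6.52 and 12.3 with pLKO. With shAhR-1 it had no peak, 6.81 and 6.33 in the full lists, and with shAhR-2 5.56, 5.63 and 6.40. The weakest pLKO library lay between the hairpin libraries, so the fold overlapped although the region left the shortened lists. In BE2C, chr11:128264182-128265320 led the gained regions with no Kelly peak, with a fold of 3.55, 4.49 and 4.91 with pLKO, 7.20, 5.31 and 5.90 with shAhR-1, and 7.71, 7.73 and 6.97 with shAhR-2. There the 6 hairpin libraries lay above the 3 vector libraries in the full lists. The region was chosen on these same libraries, so this order is no separate support. The region first among those lost with both hairpins in BE2C, chr11:113474086-113474375, had 6.21, 6.01 and 8.40 with pLKO, no peak in any shAhR-1 library, and 5.92, 3.74 and no peak with shAhR-2.

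Regions led by shAhR-2 alone in BE2C included chr11:86318939-86319834, with 3.98, no peak and 6.37 with pLKO and 10.7, 11.5 and 10.1 with shAhR-2. The next, chr11:77619590-77620618, had 3.58, 4.41 and 5.11 with pLKO and 9.92, 10.1 and 11 with shAhR-2. At both sites the folds with shAhR-1, where a peak was called, stayed between 3.54 and 5.48. In Kelly, the first site had 6.65, 5.11 and 7.04 with pLKO and 9.16, 7.62 and 9.56 with shAhR-2. The fold was thus higher with shAhR-2 in both lines at that site; it was chosen on the BE2C lists, and no test was made. Fold values of single peaks were not scaled between libraries, and the shAhR-2 libraries also had the 6 highest lowest-background values, 2.56 to 4.42 overlapping reads against 0.601 to 1.92 in the others, whose part in these differences was not tested.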

How the data were processed

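ATAC-seq peak lists of 18 libraries were used, 1 list per library. Per the submitters' processing notes, reads were handled with MACS2 2.1.0, BWA 0.7.17, deepTools 3.1.3, Trimmomatic 0.33 and CASAVA 1.8.2, on hg19; settings, duplicate removal and read-end shifts were not given in the sources used here. Each peak's fold enrichment over local background was deposited by the authors as a ratio. The authors also deposited the caller's p-value and q-value per peak, both as −log10, with no q above 0.05. Read totals were not used here.

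Only chromosomes 1 to 22 and X were used, dropping 0.197% to 0.830% of a list. Groups follow the cell line and genotype labels. The share of peaks in windows of 5 Mb, with 0.5 peaks added, was fitted on the log2 scale with limma 3.58.1 (R 4.3.3) over all windows with a mean of at least 10 peaks, with Benjamini-Hochberg adjustment over all windows. Whole-arm values had two-sided exact permutation tests (SciPy 1.17.1), with 8000 arrangements between lines and 400 between conditions. Relative fold used regions called in all 18 lists, and windows with at least 10 of them. Pileup and local background were solved from fold and p, as a Poisson tail with 1 added to each, where the fold reached 1.5; 96.3% to 99.8% of peaks could be solved, and at least 96.7% of pileups of a library came out whole within 0.05. Presence used lists shortened by −log10 p to 9204 peaks, or to the shortest list of a line for hairpins, merged at an overlap of 1 bp.

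Regions were named by the highest value of their lowest fold, up to 5 shared and 5 per line, and up to 3 gained or lost per line and hairpin. The interval and the landmark genes were chosen with earlier results of these data known. The pileup and background comparisons, the shAhR-2 sites, the 1 Mb steps and the division at 115 Mb were added after the data were seen. Tested on simulated data for the window shares between the lines, with 60 of 591 windows changed 1.5-fold, the fit recovered 96.7% and called 1 unchanged window.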

Additional observations from a re-analysis of the deposited data

Results flagged for a closer look

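The effect of shAhR-2 on the share of peaks differed between the lines in 1 window of the arm, from 130 to 135 Mb, by an interaction term in limma. The log2 change against pLKO in Kelly minus that in BE2C was -0.83 (SE 0.25, adjusted p = 0.046). In Kelly the share was 0.0861%, 0.0701% and 0.0732% with pLKO and 0.0648%, 0.0513% and 0.0700% with shAhR-2, on 14 to 46 peaks. In BE2C it was 0.154%, 0.134% and 0.142% with pLKO and 0.210%, 0.216% and 0.186% with shAhR-2, on 49 to 168 peaks. The libraries did not overlap in either line, lower with shAhR-2 in Kelly and higher in BE2C. The gap in Kelly was narrow, 0.0701% against 0.0700%. The call was kept in 4 of 18 fits that left out 1 library, with values from -0.92 to -0.70 and adjusted p from 0.00598 to 0.143 (limma). It was lost with a replicate block (adjusted p = 0.066) and with peaks of a −log10 q of at least 5 (-0.39, adjusted p = 0.79). The shAhR-2 lists were the longer ones in both lines, and the part of list length in the value was not tested.

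The effect of shAhR-2 on relative fold also differed between the lines from 120 to 125 Mb, by an interaction term in limma with no minimum number of sites. The difference was 0.48 on the log2 scale (adjusted p = 0.016) and rested on 2 shared sites. Relative fold was 0.837 to 0.886 with pLKO and 0.905 to 1.07 with shAhR-2 in Kelly, and 1.05 to 1.24 and 0.906 to 0.967 in BE2C. The window held too few sites for the fit that required 10.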

How the results depend on the processing

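The lower share, pileup and local background of the arm in Kelly kept direction and call under every alternative run; of all values recomputed, 421 kept their side of the threshold (counts: within 1.5 times), 59 counts or values moved, 11 lost a call, 4 gained one and 1 reversed. With lists shortened to 9204 peaks, the arm share differed by 0.14 (shAhR-2 against pLKO) and 0.089 (shAhR-2 against shAhR-1) on the log2 scale, neither called (exact permutation tests, adjusted p = 0.168 for each). The relative fold between lines reversed to 0.19 over all peaks of the full lists. With solved pileup in place of fold, both hairpins were called against pLKO (0.067 for shAhR-1 and 0.13 for shAhR-2). For shAhR-2 the pileup was 1.02-fold in Kelly, with overlap, and 1.17-fold in BE2C, without overlap. For shAhR-1 it was 1.05-fold in each line, with overlap. Pileup is not divided by the local background, so it is a different quantity from fold. The causes were not tested; the shortest list limits what the shortened lists can show.

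Windows of changed share for shAhR-1 numbered 0 with shortened lists, with a −log10 q of at least 5 and with shifted windows, and for shAhR-2 4 with shortened lists and 3 with the stricter q. Windows of changed fold between lines numbered 5 with solved pileup, 1 with the mean over sites and 3 with no minimum number of sites. For shAhR-1, 1 was called with solved pileup. For shAhR-2, 3 were called with solved pileup, 1 with no minimum and 2 with shifted windows. With at least 10 sites, 5 windows were called for pileup and 5 for local background, where fewer could be tested.

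Requiring 8 of 9 libraries gave 2 Kelly regions, 35 BE2C regions and 83 shared regions, and full lists gave 0, 44 and 100. When a peak had to cover 50% of a region, 5 were shared by all 18 libraries. In full lists, gained and lost regions numbered 247 (shAhR-2) and 13 (shAhR-1) in Kelly. These were 13.4% and 0.707% of the arm's regions, against 12.3% and 0.984% over the genome. In BE2C they numbered 9 (both hairpins) and 512 (shAhR-2), or 0.237% and 13.5% against 0.237% and 13.7%. With the 50% cover, BE2C had 8 (both), 169 (shAhR-2) and 21 (shAhR-1).

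With each library left out in turn, the arm share of shAhR-2 against pLKO ran from 0.14 to 0.20. The relative fold ran from -0.061 to -0.035 between lines and from -0.055 to -0.035 for shAhR-2 against shAhR-1, which was called without replicate 1 of Kelly shAhR-1. Windows of changed share ran from 1 to 3 for shAhR-1, and those of changed fold from 0 to 3 between lines and 0 to 1 for shAhR-2. Regions ran from 1 to 2 (Kelly), 17 to 38 (BE2C) and 55 to 156 (shared). Gained and lost regions in Kelly ran from 1 to 12 (both hairpins), 8 to 50 (shAhR-2) and 4 to 34 (shAhR-1), each highest without replicate 1 of Kelly shAhR-1. Without that replicate, 571 regions of the arm were compared in place of 255. In BE2C they ran from 21 to 32 with both hairpins (highest without replicate 2 of BE2C pLKO) and from 39 to 67 with shAhR-1 (highest without replicate 3 of BE2C shAhR-1).

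Replicate numbers did not pair the samples: same-numbered deviations correlated between -0.495 and 0.388, 6 of 21 above 0.1, and 5 of 21 were highest with their own number. A replicate block added 1 call, the relative fold of shAhR-2 against shAhR-1 (-0.044, exact permutation test, adjusted p = 0.04), and left the arm share at -0.70 between lines and the windows of changed share at 12, 2 and 7.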

Other observations

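The peaks of the arm covered 49.8 to 718 kb in the Kelly libraries and 326 to 1668 kb in the BE2C libraries. The covered length moved with the number of peaks in a list. The median width of arm peaks lay between 315.5 and 596 bp, and that of peaks on chromosomes other than 11 between 322 and 618 bp.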
